A study of Mus musculus with 4 samples.

Results

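A set of 10 genes of the phosphocreatine and adenine nucleotide systems was followed in mouse primary myotubes, which are multinucleated muscle cells formed in culture, with and without EDA-A2, a ligand of the TNF family. They comprised 4 creatine kinases (Ckm, Ckmt2, Ckmt1 and Ckb), 2 enzymes of creatine synthesis (Gatm and Gamt), the creatine transporter (Slc6a8), 1 adenylate kinase (Ak1) and 2 AMP deaminases (Ampd1 and Ampd3). The list was drawn up by gene function, with earlier results of these data known, and all 10 genes were found among the 53647 genes of the count tables. The bulk RNA sequencing held 4 libraries, 2 labelled Control and 2 labelled EDA-A2. Every library came from WT cells. Myoblasts from limb muscle of pups aged 2 to 3 days were switched to a medium with 5% horse serum to form myotubes, which were collected at 72 h. The EDA-A2 group received the ligand at 250 ng/ml for 24 h, and the labels do not name what the Control group received. The study describes its samples in general as biological replicates, but neither its methods nor the labels say whether these 2 libraries of a group came from separate cultures or animals, so p-values measure the spread between these libraries.

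Creatine kinases move a phosphate group between ATP and creatine, so that phosphocreatine can restore ATP within moments when a muscle fibre contracts. Cytosolic isoforms (Ckm in muscle, Ckb in brain and in immature muscle) work where ATP is used, and mitochondrial isoforms (Ckmt2 in heart and skeletal muscle, Ckmt1 in most other tissues) work where it is made. Adenylate kinase turns a pair of ADP molecules into ATP and AMP, and AMP deaminase then removes AMP as IMP, which opens the purine nucleotide cycle.

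Of the 10 genes, 9 passed the filter on low counts and 3 were called by edgeR's quasi-likelihood test at an adjusted p under 0.05, 2 lower (Ckmt2 and Ckb) and 1 higher (Ampd3) with EDA-A2. Across all 15173 genes tested, 4.57% were called, 2.13% lower and 2.45% higher. Because the list was chosen with earlier results known, this comparison is not independent of the data. The other 6 tested genes were not called, and the interval of each is given with its values. The median log2 fold change of the 9 genes was -0.09, beside 0.00 for all genes tested. All 3 calls were lost when either Control library was left out, in fits where edgeR called 0 of 15704 genes (without Control replicate 1) and 0 of 15716 genes (without Control replicate 2), with 2179 and 2449 genes at an unadjusted p under 0.05. They were also lost with no low-count filter, where 25545 genes were tested and 0.337% called. The log2 fold changes of the 3 genes kept their direction in each of these fits.

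The sequences before the transcription starts of these 3 genes and of Ckm are shown because they are the genes on which the results turn. RefSeq promoter windows were found for 8 of the 10 genes, and the 250 bases before the start were placed in GRCm39 by exact match. They were searched on both strands for the E-box CAGCTG, a sequence bound by myogenic factors, for an NFκB-like pattern (GGG, any 5 bases, CC) and for the MEF2 motif. Of all 32851 windows of this length, 13% held CAGCTG, 45.8% held the NFκB-like pattern and 1.69% held the MEF2 motif. Much of these windows lies in exons of longer annotated transcripts, so the stretch outside exons is printed for Ckmt2 and Ckm, and short stretches around matches otherwise, each from 5′ to 3′ on the strand of its gene, with the matches in capitals.
Ckmt2, chr13:92025081-92025254, minus strand, 174 bases with CAGCTG at -107: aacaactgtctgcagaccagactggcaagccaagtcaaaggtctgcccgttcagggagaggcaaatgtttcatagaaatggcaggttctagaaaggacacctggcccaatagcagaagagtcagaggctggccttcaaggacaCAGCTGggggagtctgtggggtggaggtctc
Ckm, chr7:19144769-19144832, plus strand, 64 bases with CAGCTG at -249: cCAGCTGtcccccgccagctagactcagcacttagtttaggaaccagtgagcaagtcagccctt
Ckm, chr7:19144937-19144966, plus strand, NFκB-like at -73: cccctccctGGGGACAGCCCCtcctggcta
Ckb, chr12:111638820-111638849, minus strand, NFκB-like on the other strand at -67: acaaagcggcGGCACCACCCcaaagcgcgg
Ckb, chr12:111638782-111638811, minus strand, MEF2 at -29: aatgaatgggCTATAAATAGccgccaatgg
Ampd3, chr7:110367622-110367651, plus strand, NFκB-like at -197: tcgttttttgGGGAAAGTCCtggttgggag
Ampd3, chr7:110367761-110367790, plus strand, NFκB-like at -58: cacggagcccGGGTGGAGCCggactcgctt
Positions count back from the RefSeq start, whose preceding base is -1. The Ckmt2 window held 0 NFκB-like matches, and that of Ckm held 9, which overlap one another and form 4 runs. For Ampd3 the table lists 3 windows, of which the first is shown and the other 2 held 0 NFκB-like matches. Genes that were not called held such matches too. The Gamt window held 6 NFκB-like matches and that of Gatm held 4. For Ak1, windows 1 and 2 held CAGCTG, and window 3 held 1 NFκB-like match. The Ckmt1 windows held 0 matches to these motifs. All these matches describe letters only, and no binding was measured.

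Ckmt2, the mitochondrial creatine kinase of striated muscle, lies on chromosome 13 (GRCm39 92001503 to 92025608, minus strand). Its normalized counts, scaled to the mean library size, were 1375 and 1235 in Control and 827 and 943 in EDA-A2. Both EDA-A2 libraries lay below both Control libraries. The group means were 1305 ± 99.1 and 885 ± 82.2 (SD, n = 2 each), and the log2 fold change was -0.56 (SE 0.09, 95% interval -0.75 to -0.37, edgeR adjusted p = 0.00181), a fall of 32.2% in the fit. Leaving out each library in turn gave -0.66 to -0.47, with adjusted p = 0.301 without Control replicate 1 and 0.19 without Control replicate 2 in edgeR.

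Ckb, the cytosolic brain-type creatine kinase (chromosome 12, 111635789 to 111639008, minus strand), fell as well. Its normalized counts were 3785 and 4031 in Control and 2713 and 3020 in EDA-A2, again with no overlap. The means were 3908 ± 173 and 2867 ± 217 (SD, n = 2 each), with a log2 fold change of -0.45 (SE 0.07, interval -0.60 to -0.29, edgeR adjusted p = 0.0021). Without Control replicate 1 or 2 the adjusted p of the same test was 0.288 and 0.223. A processed copy, Gm12892, matched the Ckb transcript at 96.8% over 1149 bases and had 0 counts in every library. The antisense neighbour Trmt61a, which shares exon bases with Ckb, had 95 to 135 counts, far fewer than Ckb.

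Ckm, the cytosolic muscle-type creatine kinase (chromosome 7, 19138701 to 19157965, plus strand), was not called. Its normalized counts were 3995 and 3064 in Control and 2545 and 2937 in EDA-A2. The EDA-A2 libraries were both lower, but Control replicate 2 stood only a little above EDA-A2 replicate 2, and Control replicate 1 was the highest. The log2 fold change was -0.36 (SE 0.10, interval -0.59 to -0.14) with an unadjusted p of 0.00348 and an adjusted p of 0.0662 in edgeR. Without Control replicate 1 the value was -0.16 (adjusted p = 0.551), and without Control replicate 2 it was -0.54 (adjusted p = 0.216). Without EDA-A2 replicate 2 it was -0.47 and passed the threshold (edgeR adjusted p = 0.0252), in a fit that called 2.40% of all genes. In the DESeq2 Wald test on all libraries, which called the same 3 genes of the list and 3.59% of all genes, the adjusted p of Ckm was 0.0576.

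Ckmt1, the ubiquitous mitochondrial creatine kinase, had 0 and 2 counts in Control and 2 and 2 in EDA-A2. It did not pass the filter on low counts, so it was not tested and no fold is given. In the library with the fewest Ckmt2 counts (EDA-A2 replicate 1), Ckmt2 had 844 counts and Ckmt1 had 2.

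**Figure D1:**
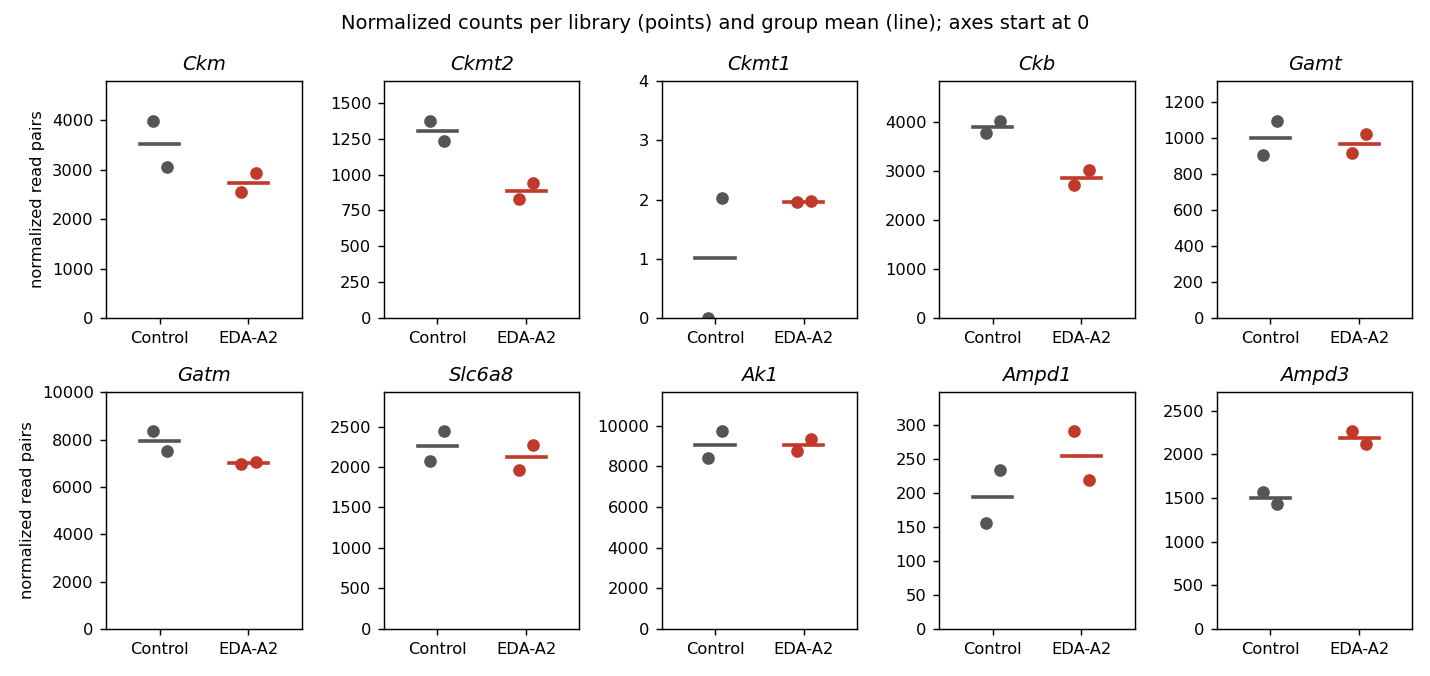
Normalized counts of read pairs (vertical axes, each from 0) for the 10 genes in the 2 Control (grey) and 2 EDA-A2 (red) libraries; points are libraries and lines are group means. Ckm, Ckmt2, Ckb and Gatm have both EDA-A2 points below both Control points, Ampd3 has both above, and Ckmt1 has at most 2 counts.

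All 3 tested creatine kinases had log2 fold changes below 0, of which 2 were called. Their summed level with Ckmt1 was 301 and 279 CPM (counts scaled to the library's total on genes) in Control and 211 and 236 in EDA-A2, and the groups did not overlap. Because levels of different genes can be compared only per length, each was divided by the length of its coding sequence to give a share of the family. Ckm made up 44.2% and 37.3% in Control and 42.3% and 43.1% in EDA-A2. Ckb made up 41.9% and 49.0%, then 45.1% and 44.3%. For both genes the EDA-A2 shares lay inside the Control range. Ckmt2 made up 13.8% and 13.7% in Control and 12.5% and 12.6% in EDA-A2, a small shift without overlap that was not tested.

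The make-up of the family depended on the length used. With the union of all annotated exons, as first chosen, the Ckb level was 3.47 times that of Ckm in Control and 3.21 times in EDA-A2. With coding length, chosen after seeing that long annotated transcripts stretch the exon union of Ckm to 9869 bases against 1143 coding bases, the ratios were 1.13 and 1.05. The difference of a log2 count ratio between Control and EDA-A2 does not depend on length, although the ratio in each library does. The log2 count ratio of Ckm to Ckb was 0.08 and -0.40 in Control and -0.09 and -0.04 in EDA-A2, a difference of 0.09 (two-sided exact permutation test, p = 1.0, adjusted p = 1.0). The ratio of Ckm to Ckmt2 was 1.54 and 1.31, then 1.62 and 1.64, a difference of 0.21 (exact permutation p = 0.333, adjusted p = 0.666). With 2 libraries against 2 this test cannot go below 0.333, and p-values were adjusted over 4 ratios, of which that of Ckmt2 to Ckmt1 rests on 0 to 2 Ckmt1 counts and is not given.

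**Figure D2:**
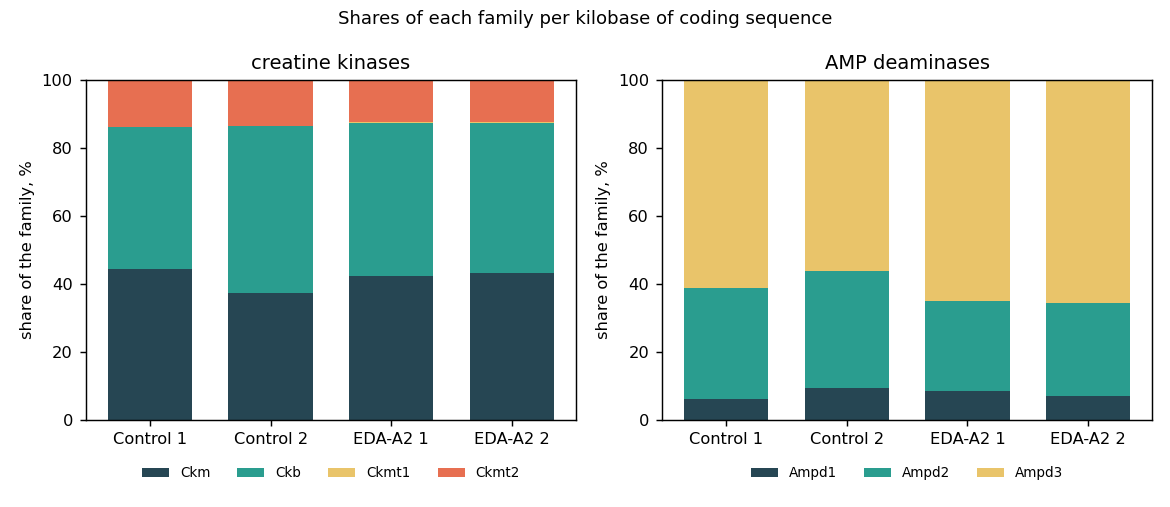
Shares (%, vertical axes) of the creatine kinases (left) and the AMP deaminases (right) in each library, from counts per kilobase of coding sequence, stacked to 100%. Ckm takes 37.3% to 44.2% and Ckmt2 12.5% to 13.8% of the creatine kinases, and Ampd3 takes 56.1% and 61.2% of the deaminases in Control and 65.2% and 65.7% in EDA-A2.

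Creatine is made in 2 steps and carried into cells by a transporter. Gatm (chromosome 2, 122424948 to 122441799), which joins arginine and glycine to form guanidinoacetate, had normalized counts of 8351 and 7499 in Control and 6963 and 7047 in EDA-A2. Both EDA-A2 libraries were below the Control libraries, and the log2 fold change of -0.18 (SE 0.07, interval -0.33 to -0.03) did not pass the threshold (unadjusted p = 0.0245, edgeR adjusted p = 0.218). Gamt (chromosome 10, 80089960 to 80096860), which methylates guanidinoacetate to creatine, had 904 and 1095, then 914 and 1021, with full overlap. Its log2 fold change was -0.05 (interval -0.26 to 0.17, edgeR adjusted p = 0.893). Slc6a8 (chromosome X, 72716728 to 72726108), the creatine transporter of the cell membrane, had 2078 and 2441, then 1964 and 2273. Its libraries overlapped too, with a log2 fold change of -0.09 (interval -0.29 to 0.10, edgeR adjusted p = 0.714). Gamt and the gene Ndufs7, which encodes a complex I subunit, overlap on opposite strands. Ndufs7 had 1964 and 2147 counts in Control and 1720 and 1872 in EDA-A2 (log2 fold change -0.25, edgeR adjusted p = 0.0857). The strand option of the counting is not given in the sources used here, so the counts of such pairs are uncertain. Of the 10 genes, 7 share exon bases with a gene on the other strand.

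Ak1 (chromosome 2, 32511448 to 32528933), the main cytosolic adenylate kinase of muscle, had normalized counts of 8418 and 9733 in Control and 8778 and 9371 in EDA-A2. The EDA-A2 libraries lay between the Control libraries. The log2 fold change was 0.00 (SE 0.08), and its 95% interval of -0.17 to 0.17 leaves out changes larger than that (edgeR adjusted p = 0.999). Per coding length Ak1 made up 50.7% and 56.9% of the adenylate kinases in Control and 52.9% and 54.8% in EDA-A2. With the union of all annotated exons its share was 33.8% and 39.0% in Control and 35.2% and 36.8% in EDA-A2.

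Ampd3, an AMP deaminase found in red blood cells and many tissues (chromosome 7, 110366387 to 110411617, plus strand), was the only gene of the list called higher. Its normalized counts were 1568 and 1432 in Control and 2263 and 2113 in EDA-A2. The lowest EDA-A2 library was well above the highest Control library. The means were 1500.03 ± 96.3 and 2188 ± 106 (SD, n = 2 each), with a log2 fold change of 0.54 (SE 0.08, interval 0.38 to 0.71, edgeR adjusted p = 0.000613), a rise of 45.9% in the fit. Leaving out each library gave 0.48 to 0.61, with adjusted p = 0.269 without Control replicate 1 and 0.19 without Control replicate 2 in edgeR. The antisense neighbour Rnf141 had 1962 to 2270 counts, and its log2 fold change was 0.09 (edgeR adjusted p = 0.625).

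Ampd1, the AMP deaminase of skeletal muscle (chromosome 3, 102981272 to 103007037), was the least abundant of the tested genes. It had normalized counts of 156 and 233 in Control and 290.1 and 218 in EDA-A2. The groups overlapped, and the log2 fold change of 0.39 (SE 0.19, interval -0.01 to 0.78) was not called (edgeR adjusted p = 0.342). It ranged from 0.13 without Control replicate 1 to 0.71 without Control replicate 2. The log2 count ratio of Ampd1 to Ampd3 was -3.33 and -2.62 in Control and -2.96 and -3.27 in EDA-A2, a difference of -0.14 (exact permutation p = 1.0, adjusted p = 1.0). Per coding length, Ampd1 made up 6.25% to 9.39% of the AMP deaminases in the 4 libraries, and 10.3% to 14.9% with the union of all annotated exons. The other deaminase, Ampd2, had a log2 fold change of 0.06 (edgeR adjusted p = 0.815). Its share per coding length was 32.5% and 34.5% in Control and 26.2% and 27.3% in EDA-A2. With the exon union the Ampd2 share was 39.8% and 40.8%, then 32.3% and 33.9%. Summed over the 3 deaminases, the level was 85.1 and 86.3 CPM in Control and 121 and 111 CPM in EDA-A2.

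**Figure D3:**
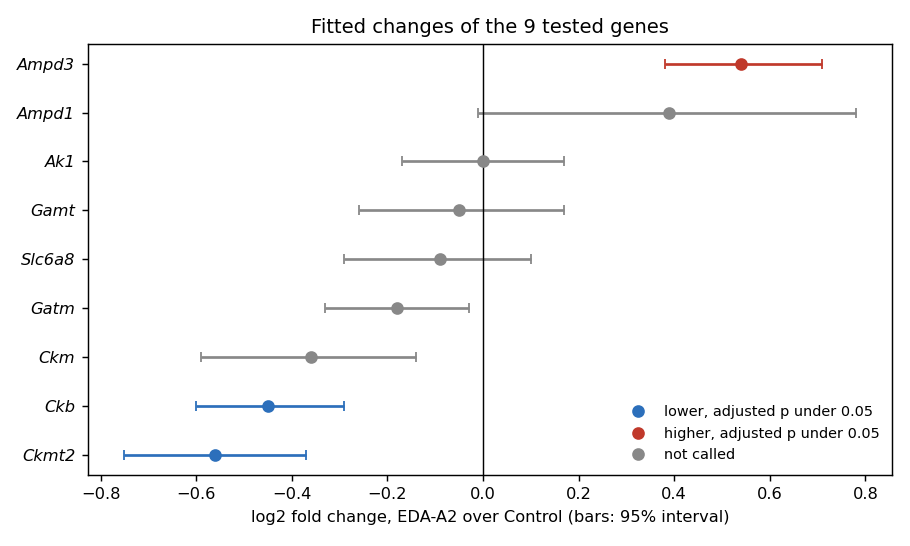
Log2 fold change, EDA-A2 over Control (horizontal axis), with its 95% interval for the 9 tested genes; blue and red mark genes lower and higher at an adjusted p under 0.05. Ckmt2 (-0.56), Ckb (-0.45) and Ampd3 (0.54) are called, and the interval of Ampd1 (-0.01 to 0.78) is the widest.

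Over the 9 tested genes, both EDA-A2 libraries lay below both Control libraries for 4 and above for 1, beside 22.2% and 22.8% of all genes tested. In TPM (counts per exon length, scaled to a fixed total), Ckb (191 ± 10.8, SD, n = 2) and Gatm (185 ± 11.8) had the highest Control levels and did not differ beyond their spread. Ak1 followed at 143 ± 16.3, then Slc6a8 at 67.8 ± 8.53 and Ckm at 56.2 ± 9.80, which did not differ by more than the sum of their SDs on this scale. Ckmt2 (36.9 ± 2.35) came next, and Ampd3 (30.1 ± 1.56) and Gamt (28.4 ± 4.19) were indistinguishable on this scale. Ampd1 (8.08 ± 2.37) and Ckmt1 were lowest. In EDA-A2 libraries Ckb (148 ± 8.83) stood after Gatm and Ak1, within the spread of Ak1 (151 ± 4.54), and Ampd3 (46.4 ± 3.00) stood beside Ckm (46.1 ± 3.93) on the same scale. Other lengths changed this order, also for pairs that were alike on this scale. Per kilobase of coding sequence in Control, Gatm (207 ± 12.9 CPM) lay above Ckb (113 ± 6.57 CPM). Gamt (46.8 ± 6.98 CPM) lay above Ampd3 (21.6 ± 1.10 CPM) by the same measure. With canonical transcript length Ampd3 (30.7 ± 1.53 TPM) lay above Gamt (16.6 ± 2.48 TPM) in Control. Per kilobase of coding sequence Ak1 was highest in both groups, Ckm (102 ± 17.7 CPM) lay above Slc6a8 (39.3 ± 5.00 CPM) in Control, and Ckm (82.5 ± 7.60 CPM) lay above Ampd3 (32.8 ± 1.89 CPM) in EDA-A2. With canonical transcript length Ckm was also higher, at 72.4 ± 12.5 TPM against 47.4 ± 6.06 for Slc6a8 in Control and 59.4 ± 4.99 against 47.3 ± 3.12 for Ampd3 in EDA-A2.

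Related genes were read from 8 lists with 56 genes, of which 49 were tested. A single gene of the 49 was called, Prkag2, and 5 had an unadjusted p under 0.05, beside 4.57% called and 15.6% at an unadjusted p under 0.05 of all genes tested. The median log2 fold change over the 49 was -0.04, and DESeq2 called 1 as well. Prkag2 encodes a regulatory γ subunit of the AMP-activated protein kinase, which senses AMP. It had normalized counts of 486 and 531 in Control and 734 and 760 in EDA-A2, and both EDA-A2 libraries were higher. The log2 fold change was 0.55 (SE 0.09, edgeR adjusted p = 0.00278), and the call was lost without Control replicate 1 (edgeR adjusted p = 0.285), without Control replicate 2 (0.185) and with no low-count filter (0.0908). Of the 6 other subunits, Prkag3, the γ subunit of fast muscle, had -0.24 (edgeR adjusted p = 0.0965). The remaining 5 ranged from -0.04 to 0.13.

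The other 7 lists had 0 genes called by edgeR and 0 by DESeq2. Of the 5 tested adenylate kinases other than Ak1, 3 were above 0, with a median of 0.11. Ak4, a mitochondrial adenylate kinase and the most counted of them, had -0.06 (edgeR adjusted p = 0.841). In the purine nucleotide cycle, Adss1, the adenylosuccinate synthase of muscle, had -0.05 (adjusted p = 0.800), and the median of 4 genes was 0.00. Neither list had a gene at an unadjusted p under 0.05. For AMP and IMP breakdown and purine salvage, 10 of 12 genes were tested, with a median of -0.04 and 1 gene at an unadjusted p under 0.05. Hprt1, which salvages hypoxanthine and guanine, had -0.05 (edgeR adjusted p = 0.831).

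The 5 tested genes for ADP and ATP exchange across the mitochondrial membranes were all below 0 with TMM scaling and 4 of 5 with total counts, from -0.17 to -0.04 with TMM, with a median of -0.11 and 1 gene at an unadjusted p under 0.05. Vdac1, the main pore of the outer membrane, had 33646 and 30025 normalized counts in Control and 28165 and 29821 in EDA-A2 (log2 fold change -0.13, edgeR adjusted p = 0.437). Total-count scaling moved the median of all genes from -0.002 to 0.053, and Vdac1 had -0.08 under it. Nucleoside diphosphate kinases had a median of 0.02 over 5 genes and 1 at an unadjusted p under 0.05, Nme2 (-0.29, edgeR adjusted p = 0.306). Creatine transport and arginine-glycine supply had a median of -0.04 over 6 genes, with Shmt2, the mitochondrial serine hydroxymethyltransferase, at -0.04 (adjusted p = 0.910). De novo purine synthesis had a median of -0.06 over 7 genes, with Paics at -0.08 (adjusted p = 0.672), and neither of these 2 lists had a gene at an unadjusted p under 0.05.

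**Figure D4:**
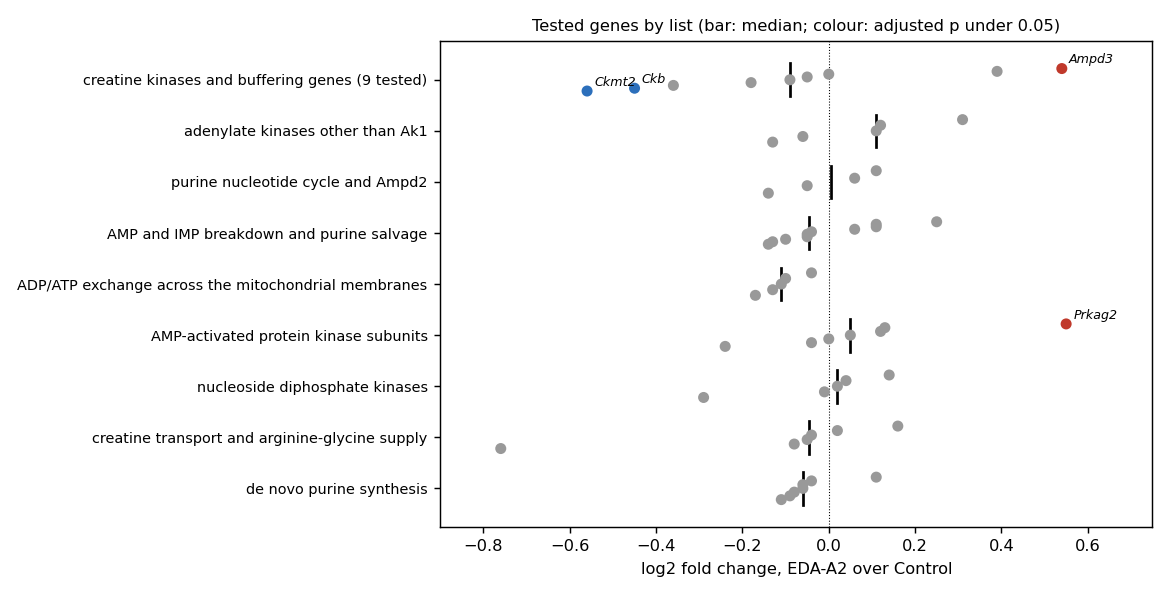
Log2 fold change, EDA-A2 over Control (horizontal axis), for the tested genes of the 10-gene list (top row) and of 8 related lists; points are genes, bars are list medians, and blue and red mark genes called lower and higher. Among 49 related genes Prkag2 (0.55) is the one called, and list medians lie between -0.11 and 0.11.

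The cell type was checked against marker lists. All 12 myotube markers were tested, all 12 had a log2 fold change below 0 with TMM scaling and 10 with total counts, and 6 were called lower under both (median -0.32, beside 2.13% of all genes called lower). They ranged from -0.60 (Cav3) to -0.01 (Mymk), and the groups overlapped for Mymk, Des (-0.02) and Neb (-0.11). The summed level of all 12 was 29179 and 28200 CPM in Control and 22908 and 22541 CPM in EDA-A2, so it moved with Ckmt2 and Ckb. In bulk RNA, fewer myotubes and less of such RNA per myotube cannot be told apart, and the part of this shift in the changes of the creatine kinases was not tested. Myoblast markers summed to 491 and 474, then 514 and 501 CPM, with 1 of 4 tested genes called lower, 3 at an unadjusted p under 0.05, and Calcr at 0. Most of that sum was Sdc4 (316 and 315, then 377 and 369 CPM), and the other 3 tested genes had log2 fold changes below 0. Markers of dividing cells had 0 of 6 genes called by edgeR, none at an unadjusted p under 0.05, and sums of 708 to 856 CPM. Fibroblast markers summed to 1629 to 1725 CPM with 0 of 5 called and 2 at an unadjusted p under 0.05, and Lum and Thy1 were at 0. Col3a1 gave most of the fibroblast sum (1310 and 1540 CPM in Control, 1460 and 1430 CPM in EDA-A2). Macrophage markers summed to 2.64 and 2.94 CPM in Control and 4.42 and 3.60 CPM in EDA-A2, endothelial markers to 1.01 to 1.26 CPM, and those of Schwann cells and glia to 2.00 to 2.97 CPM with Sox10 at 0. Adipocyte markers reached at most 0.101 CPM, with Plin1 and Ucp1 at 0. Of the genes tested in these 4 lists 0 were called, and 1, a macrophage marker, had an unadjusted p under 0.05.

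Among 5643 well-counted protein-coding genes, those whose pattern over the 4 libraries lay nearest to that of Ckm and Ckmt2 were sought by Euclidean distance between centred log2 levels. Genes picked this way match the fold change and library pattern of Ckm or Ckmt2 by construction. For Ckmt2 these were Usp29 (distance 0.0175), which encodes a deubiquitinase, Tmem119 (0.0512) and Acta1 (0.0637), the skeletal muscle actin. Their log2 fold changes were -0.56, -0.54 and -0.52, beside -0.56 for Ckmt2. For Ckm they were Col6a3 (0.0558), a collagen VI chain, Myl12a (0.11), a myosin regulatory light chain, and Scn3b (0.113), a sodium channel subunit, with -0.35, -0.35 and -0.39. Col6a3 shared with Ckm the high Control replicate 1, at 12162 normalized counts against 8980 in Control replicate 2 and 7848 and 8767 in EDA-A2.

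**Figure D5:**
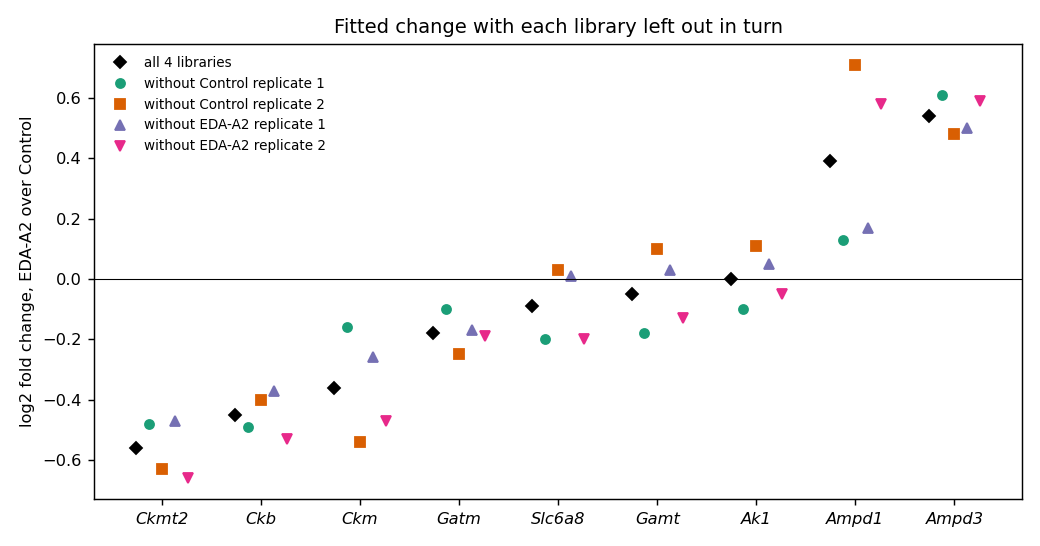
Log2 fold change, EDA-A2 over Control (vertical axis), of the 9 tested genes with all 4 libraries (black diamonds) and with any 1 library removed (coloured symbols). Ckmt2, Ckb and Ampd3 keep their direction in every fit, while Ckm ranges from -0.54 to -0.16 and Gamt, Slc6a8 and Ak1 fall on both sides of 0.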

How the data were processed

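The authors trimmed paired-end reads from stranded poly(A) libraries, mapped them to GRCm39 with STAR 2.7.3a and counted them per gene with HTSeq 0.11.1, and the deposited values are raw counts per Ensembl gene. The annotation release and the strand option are not given in the sources used here. Counts on genes were 29444155 to 29746863 per library, with 6.68% to 7.40% of pairs assigned to no counted feature, 0.946% to 0.986% ambiguous and 4.56% to 4.76% not unique, all left out.

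Counts were tested in R 4.3.3 with edgeR 4.0.16 (TMM, filterByExpr with a minimum count of 10 and total of 15, quasi-likelihood fit and test, condition only), adjusted by Benjamini-Hochberg over 15173 genes with a threshold of 0.05. SEs are the log2 fold change over the square root of F. Steps were tested on simulated data with a common dispersion for all genes and with changes larger than those of the listed genes. That test does not show how well changes of the size seen here are called. Symbols, lengths and coordinates came from GENCODE on GRCm39, which matched 52610 of 53647 genes. Promoter windows came from RefSeq (GRCm38.p6 table). Similar transcripts were sought with blastn 2.17.0 (at least 90% identity over 300 bases).

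Genes, lists and tests were chosen with earlier results of these data known. Named were the 10 genes, in each related list up to 3 called genes or else the most counted gene, and the 3 nearest patterns (at least 1000 normalized counts) for Ckm and Ckmt2. Genes named outside this rule (Ampd2, Prkag3, Sdc4, Cav3, Mymk, Des, Neb, Col3a1 and overlapping genes) were chosen after their values were seen. Ratios used a prior count of 0.5. Alternatives were other scalings, filters, DESeq2 1.42.0, robust estimation, a replicate block, protein-coding genes only and leaving out each library.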

Additional observations from a re-analysis of the deposited data

How the results depend on the processing

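Ckmt2, Ckb and Ampd3 kept their direction in all 13 alternatives and their calls in 10 of them. With no low-count filter, 0 of the 10 genes were called higher and 0 lower by edgeR (5 at an unadjusted p under 0.05), with log2 fold changes of -0.56 for Ckmt2, -0.45 for Ckb and 0.54 for Ampd3, and 0 AMP-activated protein kinase genes were called. The cause was not tested. Leaving out each library gave 0 to 1 genes called higher, 0 to 3 called lower and 0 to 1 kinase subunits, with values of -0.66 to -0.47 for Ckmt2, -0.53 to -0.37 for Ckb, 0.48 to 0.61 for Ampd3 and -0.54 to -0.16 for Ckm. These fits assume that the lone library of a group varies like the other group. Over all tested genes, the Control libraries differed more from each other (chi-square per gene 9.94) than the EDA-A2 libraries did (4.73). Every call was lost without either Control library, where 3 and 6 of the 9 genes had an unadjusted p under 0.05, and the cause was not tested.

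Replicate numbers are shared by the groups but pair nothing in the labels, and the deviations of same-numbered libraries correlated at 0.0598. With the replicate block 1066 genes (7.03%) were called in place of 694, the AMP-activated protein kinase list had 2 calls in place of 1, and Ckm was called (log2 fold change -0.36, adjusted p = 0.0173).

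Several uncalled values near 0 changed sign. Under total counts these were Gamt (0.01), Ak1 (0.05), Ak4 (0.00), Hprt1 (0.01) and Shmt2 (0.02). Ak1 was 0.00 with upper quartile factors, 10 counts in every library, the replicate block and protein-coding genes only. Leaving out libraries gave -0.18 to 0.10 for Gamt, -0.20 to 0.03 for Slc6a8, -0.10 to 0.11 for Ak1, -0.19 to 0.09 for Ak4, -0.11 to 0.01 for Adss1, -0.54 to 0.03 for Nme2 and -0.23 to 0.18 for Shmt2. Total counts also moved the split of all calls from 371 higher and 323 lower to 485 and 194. The ratio of the Ckb to the Ckm level, 3.47 in Control and 3.21 in EDA-A2, was 3.12 and 2.89 with canonical transcript length and 1.13 and 1.05 with coding length, both chosen after seeing the data.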
